A study of Mus musculus with 15 samples.

Results

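The Bcl2 family is the group of related proteins that decides whether the outer membrane of the mitochondrion is opened during apoptosis. The expression of 10 of its genes was followed in mouse epiblast-like cells (EpiLCs) in which ERK signalling was switched on and then blocked. The genes were chosen by name for their roles and not by a threshold on their values: the anti-apoptotic Bcl2, Bcl2l1 and Mcl1, the BH3-only Bcl2l11, Bmf, Bbc3, Pmaip1 and Bik, and the effectors Bax and Bak1. All 10 were found among the 52636 genes of the deposited count table, and 9 of them were among the 13451 genes with enough counts to be tested. Bik was the gene that was not tested.

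Apoptosis through the mitochondrion is set off when Bax and Bak1 form pores in its outer membrane and release cytochrome c. The anti-apoptotic members hold these effectors and the BH3-only proteins in complexes, and the BH3-only proteins, which sense different kinds of stress, occupy the anti-apoptotic members or activate the effectors. ERK signalling is known as a survival signal in many cells, through phosphorylation and loss of the Bim protein (the product of Bcl2l11) and through stabilisation of Mcl1 protein, while mouse embryonic stem cells and epiblast cells are known to be readily killed through the mitochondrial pathway. RNA levels, which are what was measured here, do not show these protein steps.

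All samples came from the CRAFR26 line, derived from mouse embryonic stem cells that carry a c-RAF kinase construct which 4-hydroxytamoxifen (4OHT) activates, so the controls carry the construct too. The stem cells were first taken through 2 passages as RSCs (a name the labels do not spell out) and then turned into EpiLCs for 48 h in N2B27 medium with bFGF at 12 ng/ml, Activin A at 20 ng/ml and XAV939 at 1 µM. All groups, controls included, were given PD17, an inhibitor of FGF receptors, at 250 nM during the 2 h beforehand. The 0h group received no 4OHT (n = 3), the 2h and 4h groups received 4OHT at 250 nM for 2 h and 4 h (n = 4 each), and the rev group received 4OHT for 4 h followed by a MEK inhibitor for 2 h (n = 4), so that MEK inhibition and 2 more hours of culture cannot be told apart in it. Libraries were made from total RNA depleted of ribosomal RNA. The line was represented by 2 clones, named clone 4 and clone 8 in the labels, with 2 replicates of each per group, except that the 0h group held 1 of clone 4, since the submitters discarded 1 sample in quality control. Whether the replicates of a clone were separate cultures is not stated, so p-values measure only the spread between these samples, which may be technical. No group received 4OHT without the construct.

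The 4h libraries stood apart. Their total counts lay between 1552022 and 6658950, against 8667880 to 13004556 in the other 11 libraries, and mitochondrial genes took 7.21% to 12.4% of their counts against 2.67% to 6.98%. The 6 naive pluripotency markers summed to 41.0 to 161 CPM (the count per 1000000 counts of the scaled library) at 4h and to 17.6 to 29.5 CPM elsewhere, and the 10 markers of EpiLCs to 1279 to 1500 CPM at 4h and 1518 to 2152 CPM elsewhere. All 10 EpiLC markers were detected in each group, and they did not move one way at 4h vs 0h: 3 rose and 6 fell. The sum was led by Dnmt3b, a DNA methyltransferase, which went from 935 ± 109 CPM at 0h to 416 ± 17.9 at 4h, while the pluripotency factor Sox2 rose from 22.3 ± 1.39 to 111 ± 30.2 CPM and the epiblast factor Otx2 from 12.3 ± 2.98 to 25.1 ± 9.58 CPM (SD, n = 3 and 4). Under total count scaling, by which the median tested gene also fell at 4h, 1 EpiLC marker rose, Sox2, and 6 fell. Of the 4 neural markers, 2 rose and 1 fell at 4h vs 0h, also under total count scaling. Sox1 went from 2.96 ± 1.51 to 32.1 ± 6.57 CPM and Pax6, like it a factor of early neural cells, from 0.785 ± 0.258 to 10.9 ± 1.84 CPM, while Nes fell from 55.2 ± 5.28 to 22.9 ± 12.4 CPM, so that their sum, between 50.3 and 80.5 CPM over all groups, hides opposite moves. The summed levels of fibroblast (5 genes), mesoderm (5) and primitive endoderm (6) markers stayed at or under 15.7 CPM. Of these, 1 or 2 fibroblast markers had no counts in any library of a group, and neither did 1 mesoderm marker at 2h. The part of depth, mitochondrial share and naive, EpiLC and neural markers in the changes at 4h was not tested. The values that bear on depth are those after thinning every library to 1552022 counts. In 4h vs 0h 5 members were then called, against 7 at full depth. Bak1 and Bcl2 were no longer among them, and Bcl2 had passed the filter at full depth only through libraries of 0h and 2h. After the mitochondrial and the 20 most abundant genes were left out, 7 were called. The share of all tested genes called in these fits is not given here. The 4 ERK output genes used as a check (Spry2, Spry4, Dusp6 and Egr1) were all higher at 2h and at 4h than at 0h. From 2h to 4h, 3 of the 4 fell and 0 rose, and from 4h to rev 3 fell and 0 rose. All 4 were still higher in rev than at 0h, with a median log2 fold change of 3.14. Under total count scaling 3 of them were.

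Levels are given as CPM after scaling by the trimmed mean of M-values (TMM), and the SD is the standard deviation among the libraries of one group. Changes are log2 fold changes from edgeR's quasi-likelihood test over all tested genes, and calls were made at an adjusted p (Benjamini-Hochberg) under 0.05. The standard error (SE) is the size of the log2 fold change divided by the square root of the F value of that test. In bulk samples, fewer cells that express a gene and less of its RNA per cell cannot be told apart.

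Of the 9 tested members, 1 rose and 0 fell between 0h and 2h, where 3.98% of all tested genes rose and 2.46% fell. Between 0h and 4h, 2 rose and 5 fell, against 20.5% and 18.9% of all tested genes. Between 2h and 4h, 1 rose and 4 fell, against 19.7% and 19.2%. From 4h to rev, 2 rose and 2 fell, against 15.1% and 15.6%. In rev vs 0h, 0 rose and 1 fell, against 6.49% and 4.66%. Under scaling by total count alone, 1 rose and 5 fell in 4h vs 0h, 0 rose and 5 fell in 4h vs 2h, and 3 rose and 1 fell in rev vs 4h. Under that scaling the median tested gene also fell at 4h, against both 0h and 2h. The share of all tested genes called under it is not given here. The anti-apoptotic Mcl1 and Bcl2l1 were among those that fell at 4h, and the BH3-only Pmaip1 was the member that had already risen at 2h. The median log2 fold change of the 9 members at 4h vs 0h was -0.69, where that of all tested genes was 0.03. The third anti-apoptotic member, Bcl2, is in these counts but passed the filter on low counts only through libraries of 0h and 2h, where it is high. Without it, a count added after the values were seen, 2 rose and 4 fell of 8 tested members at 4h vs 0h, with a median of -0.32. Comparisons that share a group share its libraries, so these counts are not independent of each other. Groups whose libraries do not overlap are named gene by gene below. At 4h vs 0h all libraries of the first group lay above those of the second in 18.2% of all tested genes and below them in 18.1%. These shares were 10.1% and 8.99% for 2h vs 0h and 12.8% and 13.3% for 4h vs 2h. They were 11.9% and 10.8% for rev vs 4h and 14.7% and 11.3% for rev vs 0h.

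**Figure D1:**
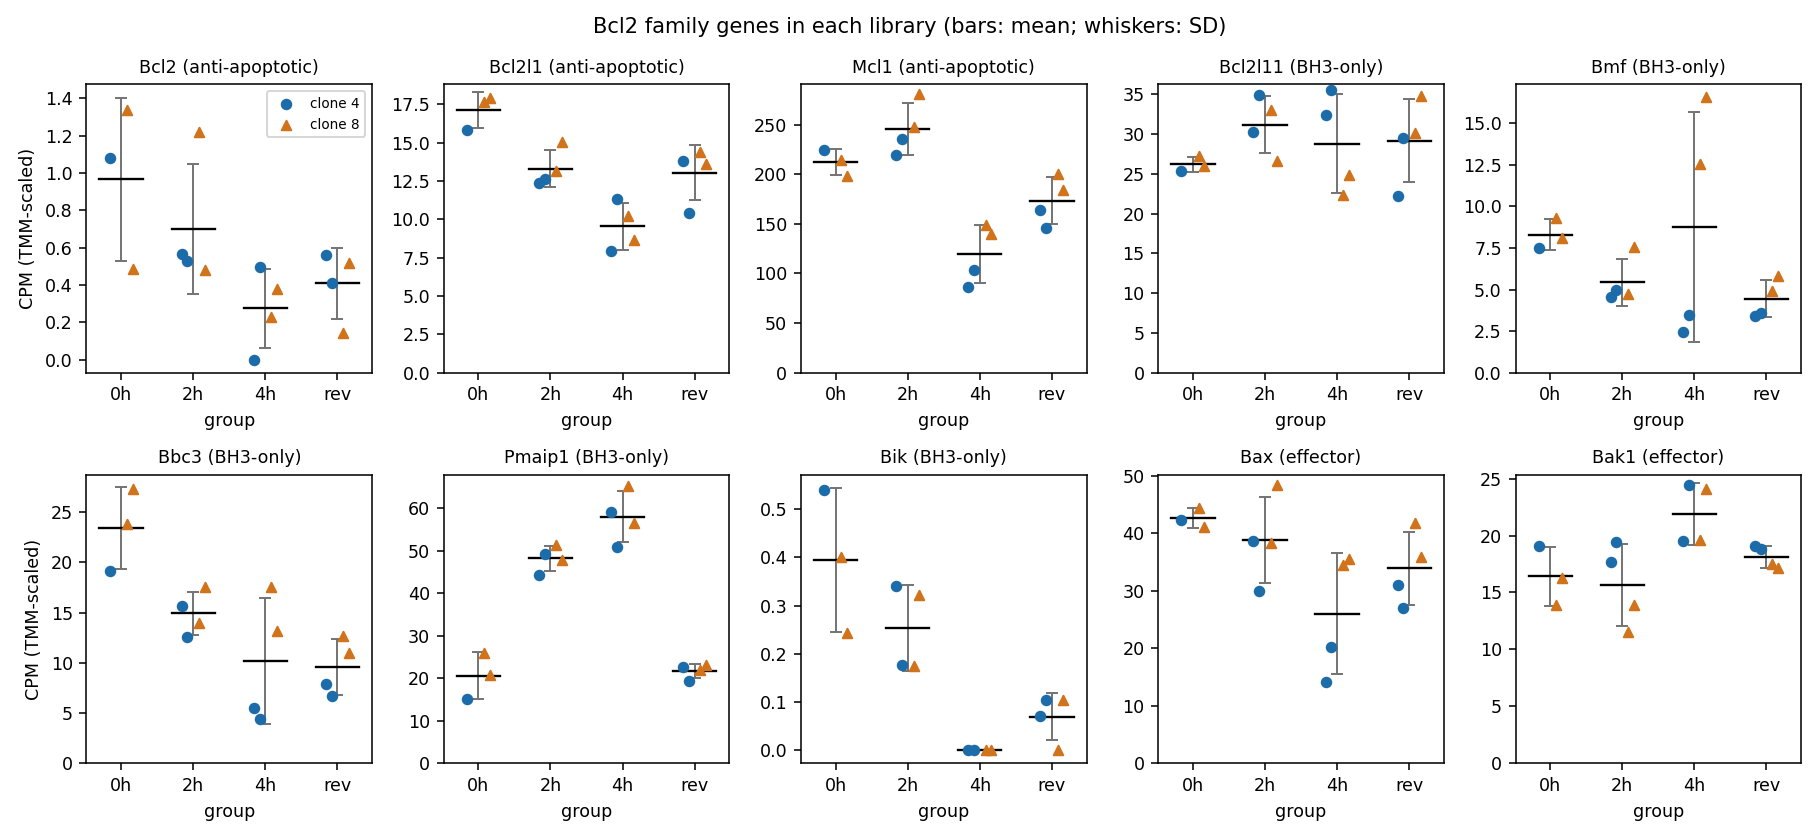
Level of each of the 10 genes in every library, in CPM on TMM-scaled libraries (y axis, linear, with its own range in each panel), by group (x axis); circles are clone 4, triangles clone 8, horizontal bars the group means and whiskers the SD. The 4 libraries of Pmaip1 at 2h and the 4 at 4h lie above all of its 0h and rev libraries, and those of Mcl1 at 4h lie below all of its 0h and 2h libraries.

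Compared per kb of exon, so that genes can be ranked, Mcl1 was the most highly expressed member in each group. At 0h the level per kb was 62.1 ± 3.86 CPM (SD, n = 3) for Mcl1, 27.0 ± 1.09 for Bax, 11.0 ± 1.93 for Bbc3, 7.56 ± 1.99 for Pmaip1 and 6.82 ± 1.08 for Bak1. It was 3.74 ± 0.250 for Bcl2l1, 3.26 ± 0.117 for Bcl2l11, 1.58 ± 0.173 for Bmf, 0.248 ± 0.0936 for Bik and 0.106 ± 0.0477 for Bcl2. The ranges of Bbc3 and Pmaip1 overlapped, as did those of Pmaip1 and Bak1, and the other neighbours in this order did not overlap over the 3 libraries. At 4h Pmaip1, at 21.2 ± 2.20 CPM per kb (n = 4), stood second after Mcl1, at 35.0 ± 8.60, and its range overlapped that of Bax, at 16.5 ± 6.71.

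Mcl1 is a short-lived anti-apoptotic protein that binds Bak1, Bim, Puma and Noxa (Bim, Puma and Noxa are the products of Bcl2l11, Bbc3 and Pmaip1). Its gene (ENSMUSG00000038612) lies on the plus strand at chr3:95658788-95663176 (GRCm38, which is mm10, in GENCODE M21). The level of Mcl1 was 224 CPM in clone 4 and 214 and 198 CPM in clone 8 at 0h. At 2h it was 219 and 235 CPM in clone 4 and 247 and 281 CPM in clone 8. At 4h it was 86.7 and 104 CPM in clone 4 and 148 and 140 CPM in clone 8, so that each 4h library lay below each library of 0h and 2h. In rev it was 164 and 146 CPM in clone 4 and 201 and 184 CPM in clone 8, above the 4h libraries of the same clone. Mcl1 fell by 1.05 on the log2 scale from 2h to 4h (SE 0.106, adjusted p 1.45e-07) and by 0.81 from 0h to 4h (SE 0.113, adjusted p 9.79e-06). It rose 1.46-fold from 4h to rev (log2 0.55, SE 0.106, adjusted p 0.000466). Over both clones, the 2h and rev groups were not called against 0h, with log2 fold changes of 0.24 (adjusted p 0.222) and -0.26 (adjusted p 0.136). In rev vs 0h the log2 fold change was -0.535 in clone 4, against its single 0h library, and -0.101 in clone 8.

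Bcl2l1 encodes Bcl-xL, an anti-apoptotic protein that binds Bax, Bak1 and most BH3-only proteins. The gene (ENSMUSG00000007659) lies on the minus strand at chr2:152780668-152831728. At 0h its level was 15.8, 17.6 and 17.9 CPM, and at 2h it lay between 12.4 and 15.1 CPM. At 4h it was 7.94 and 11.4 CPM in clone 4 and 10.2 and 8.67 CPM in clone 8, below all libraries of 0h and 2h. In rev it was 13.8, 10.4, 14.4 and 13.6 CPM, and the lowest of these overlapped the 4h libraries. Bcl2l1 fell by 0.80 on the log2 scale between 0h and 4h (SE 0.149, adjusted p 0.000242) and rose 1.34-fold from 4h to rev (log2 0.43, adjusted p 0.0245). The rise in rev was lost when any of 5 libraries was left out, with an adjusted p of up to 0.0929 (without the second 4h library of clone 8), and in 4 other fits, thinning among them (log2 0.09, adjusted p 0.849), while the fall at 4h was kept without each of the 15 libraries in turn.

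Bcl2, the founding anti-apoptotic member, was close to the limit of detection. The gene (ENSMUSG00000057329, minus strand, chr1:106538178-106714274) had a median of 5 counts and a maximum of 20 counts over the 15 libraries, and it passed the filter on low counts through 3 libraries, of 0h and 2h. Its counts were 20, 20 and 4 at 0h, 5, 6, 14 and 9 at 2h, 0, 2, 1 and 1 at 4h, while the rev libraries held 8, 4, 1 and 5. Pooled over the libraries of a group, the level was 1.05 CPM at 0h (95% exact Poisson interval 0.766 to 1.42) and 0.314 CPM at 4h (0.0856 to 0.804), and these intervals cover counting error only. The fall at 4h vs 0h (log2 fold change -1.66, SE 0.658, adjusted p 0.0471) was just past the threshold and was lost in 7 of 14 fits that each left out 1 library, and in 4 of 8 other fits, DESeq2 among them (adjusted p 0.113); the remaining leave-out fit did not test Bcl2. Without the first 0h library of clone 8 its adjusted p was 0.154. The exons of Bcl2 share 6.09% of their length with an antisense transcript, D630008O14Rik, which had 0 counts in all libraries.

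The promoters of the anti-apoptotic members that fell at 4h and rose in rev are shown here with those of Bcl2l11 and Bax for comparison, because ETS factors, which ERK phosphorylates, and FOXO factors, which act on Bcl2l11 in other cells, have known core motifs. Each sequence runs 5′ to 3′ on the strand of its gene from 250 bases before to 50 bases after a start site (RefSeq, GRCm38.p6), and capitals mark motif matches on either strand (CCGGAAG for ETS, GTAAACA for FOXO, CACGTG for the E-box).
Mcl1 (chr3:95658471-95658770): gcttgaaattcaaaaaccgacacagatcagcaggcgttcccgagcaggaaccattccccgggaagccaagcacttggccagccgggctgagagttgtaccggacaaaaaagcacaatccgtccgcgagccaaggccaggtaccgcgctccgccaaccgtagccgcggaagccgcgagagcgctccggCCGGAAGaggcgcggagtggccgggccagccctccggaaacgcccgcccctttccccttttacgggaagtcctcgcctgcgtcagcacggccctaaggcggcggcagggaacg
Bcl2l1, start site 3 (chr2:152831679-152831978): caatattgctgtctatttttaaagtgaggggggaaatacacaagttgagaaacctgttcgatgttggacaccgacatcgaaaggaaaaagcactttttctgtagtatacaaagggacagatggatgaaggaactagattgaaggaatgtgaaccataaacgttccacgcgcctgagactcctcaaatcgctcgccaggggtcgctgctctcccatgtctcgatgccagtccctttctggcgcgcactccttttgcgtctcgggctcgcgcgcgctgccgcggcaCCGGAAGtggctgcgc
Bcl2l11, first start site (chr2:128125788-128126087): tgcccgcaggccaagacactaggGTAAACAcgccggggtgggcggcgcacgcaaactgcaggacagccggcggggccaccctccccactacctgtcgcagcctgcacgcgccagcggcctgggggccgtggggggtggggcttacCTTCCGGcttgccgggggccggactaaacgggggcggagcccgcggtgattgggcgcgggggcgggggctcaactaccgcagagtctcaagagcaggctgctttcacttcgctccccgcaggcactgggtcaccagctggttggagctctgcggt
Bax (chr7:45466849-45467148): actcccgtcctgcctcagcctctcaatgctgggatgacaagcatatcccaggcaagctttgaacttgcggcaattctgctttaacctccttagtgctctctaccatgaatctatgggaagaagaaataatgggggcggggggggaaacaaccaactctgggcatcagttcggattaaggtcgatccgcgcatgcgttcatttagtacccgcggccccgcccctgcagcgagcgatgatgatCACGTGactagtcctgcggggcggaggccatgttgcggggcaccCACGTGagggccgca

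The ETS letters stood at position -63 of Mcl1, 34 of start site 3 of Bcl2l1 and -105 of the first Bcl2l11 start site, counted from the start site to the first base of the match. The FOXO letters stood at position -227 of Bcl2l11 and -167 of the second start site of Bbc3. The E-box letters stood at positions -9 and 35 of Bax, on both sides of its start site, and at position -64 of start site 3 of Bbc3. Start sites 1 and 2 of Bcl2l1 held none of the searched motifs. Of 32851 promoters of this length, 8.86% held the ETS letters, 3.65% the FOXO letters and 7.15% the E-box letters. Promoters of 8 members were searched, and those of Pmaip1 and Bik were not. The letters TGACGTCA (the cAMP response element), TGANTCA (AP-1), GCGTGGGCG (EGR) and the CArG box were searched on both strands as well. They were not found in any of the windows of the 8 members. Those motifs stood in 1.79%, 7.81%, 0.612% and 1.63% of all promoters. The searched motifs do not overlap each other in the windows shown, the ETS letters are found both in genes that fell and in Bcl2l11, which was not called, and a match is a description of the letters only.

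Pmaip1 encodes Noxa, a BH3-only protein that binds Mcl1 and promotes its degradation. Its level (ENSMUSG00000024521, position not given here) was 15.1 CPM in clone 4 and 26.0 and 20.8 CPM in clone 8 at 0h. At 2h it was 44.3 and 49.3 CPM in clone 4 and 51.5 and 47.9 CPM in clone 8. The 4h libraries stood at 59.3 and 50.8 CPM in clone 4 and 65.3 and 56.5 CPM in clone 8. In rev it was 22.6, 19.4, 22.0 and 23.2 CPM. Thus the 2h and 4h libraries all lay above those of 0h and rev, and the rev libraries lay within the range of 0h. Pmaip1 rose 2.42-fold at 2h (log2 1.27, SE 0.129, adjusted p 1.38e-06) and 2.90-fold at 4h (SE 0.131, adjusted p 1.33e-08) over 0h. It fell by 1.41 on the log2 scale from 4h to rev (SE 0.118, adjusted p 1.65e-08), and rev vs 0h was not called (log2 fold change 0.13, adjusted p 0.551). Leaving out each library in turn kept these calls, with a log2 fold change between 1.10 and 1.43 at 2h vs 0h and between 1.35 and 1.69 at 4h vs 0h.

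Within each library, the log2 ratio of Pmaip1 to Mcl1 counts, which does not depend on how libraries are scaled, was -3.39 ± 0.443 at 0h (SD, n = 3), -2.34 ± 0.140 at 2h, -1.02 ± 0.333 at 4h and -2.99 ± 0.145 in rev (n = 4 each). The ratio at 2h lay between -2.55 and -2.25 and at 4h between -1.31 and -0.55, above all 0h libraries, which reached -3.04. The rev libraries, from -3.19 to -2.86, again overlapped those of 0h.

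Bbc3 encodes Puma, a BH3-only protein that binds all anti-apoptotic members and is a known p53 target. The gene (ENSMUSG00000002083) lies on the plus strand at chr7:16308393-16318205. Its level was 19.1, 23.9 and 27.3 CPM at 0h and between 12.6 and 17.5 CPM at 2h. At 4h it was 5.50 and 4.44 CPM in clone 4, from 9 and 18 counts, and 17.5 and 13.2 CPM in clone 8. In rev it was 7.92 and 6.71 CPM in clone 4 and 12.7 and 11.0 CPM in clone 8. All libraries of the later groups lay below those of 0h. Bbc3 fell by 1.17 on the log2 scale at 4h vs 0h (SE 0.231, adjusted p 0.000538) and was still lower in rev than at 0h (log2 fold change -1.21, SE 0.220, adjusted p 0.00135), the single member called in that comparison. The change from 4h to rev was not called (log2 fold change -0.04, adjusted p 0.927). The fall from 2h to 4h (log2 fold change -0.66, adjusted p 0.0242) was lost without the first 2h library of clone 4 or either 4h library of clone 4 (adjusted p up to 0.108), and in 3 other fits (adjusted p up to 0.259, with no clone term).

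Bcl2l11 encodes Bim, a BH3-only protein whose loss ERK is known to drive at the protein level. The gene (ENSMUSG00000027381) lies on the plus strand at chr2:128126038-128162547. The level of Bcl2l11 was 25.4, 27.2 and 25.9 CPM at 0h. It lay between 26.6 and 34.8 CPM at 2h, between 22.3 and 35.5 CPM at 4h and between 22.2 and 34.8 CPM in rev, so the groups overlapped. It was not called in any of the comparisons between groups: the log2 fold change was 0.24 (SE 0.155, adjusted p 0.398) at 2h vs 0h, 0.12 (SE 0.159, adjusted p 0.588) at 4h vs 0h and 0.03 (SE 0.146, adjusted p 0.904) at rev vs 4h. The log2 ratio of Bcl2l11 to Mcl1 counts was -3.02 ± 0.111 at 0h, -2.98 ± 0.287 at 2h, -2.05 ± 0.662 at 4h and, after reversion, -2.58 ± 0.272, and the 4h libraries of clone 4 (-1.42 and -1.54) lay above those of clone 8 (-2.73 and -2.50).

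Bmf encodes a BH3-only protein that is held at the cytoskeleton in healthy cells. The gene (ENSMUSG00000040093) lies on the minus strand at chr2:118528757-118549687. Its level was 7.50, 9.29 and 8.12 CPM at 0h, and 4.54, 4.95, 4.71 and 7.55 CPM at 2h. By 4h the clones had parted, with 2.44 and 3.46 CPM in clone 4 (from 4 and 14 counts) and 12.5 and 16.6 CPM in clone 8 (from 55 and 44 counts). In rev it was 3.43 and 3.61 CPM in clone 4 and 4.93 and 5.81 CPM in clone 8. The log2 fold change of rev vs 0h was -1.09 in clone 4, against its single 0h library, and -0.69 in clone 8. Over both clones it was -0.82 and was not called (adjusted p 0.0762). Bmf was not called over both clones at 4h vs 0h either (log2 fold change 0.05, SE 0.306, adjusted p 0.917). It fell from 4h to rev (log2 fold change -0.87, SE 0.298, adjusted p 0.0325), a call that was lost when any of 6 libraries was left out, with an adjusted p of up to 0.164 (without the second 4h library of clone 8, where the log2 fold change was smallest, at -0.55), and in 3 other fits (adjusted p up to 0.368, under total count scaling).

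Bik, a BH3-only protein of the endoplasmic reticulum, had too few counts to be tested. The gene (ENSMUSG00000016758) lies on the plus strand at chr15:83526862-83544634. Its counts were 10, 6 and 2 at 0h, 3, 2, 2 and 6 at 2h, 0 in all 4 libraries at 4h, and 1, 1, 0 and 1 in rev. Pooled over a group, its level was 0.431 CPM at 0h (95% exact Poisson interval 0.256 to 0.682) and 0.259 CPM at 2h (0.138 to 0.442). The 0 counts of 4h allow up to 0.236 CPM (3 counts over the group), but the upper end of the exact Poisson interval at 4h, 0.290 CPM, lies within the interval of 0h, so no bound on the fold is given. In a fit with no filter on low counts its adjusted p was 0.0279 for 4h vs 0h and 0.0465 for rev vs 0h.

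Bax is an effector that moves from the cytosol to the mitochondrion. The gene (ENSMUSG00000003873) lies on the minus strand at chr7:45461697-45466898, and 12.2% of its exon length is shared with Gm45808 on the same strand, which had 0 counts in all libraries. Its level was 42.2, 44.4 and 41.1 CPM at 0h and between 30.0 and 48.4 CPM at 2h. After 4 h of 4OHT it was 14.1 and 20.2 CPM in clone 4 and 34.4 and 35.4 CPM in clone 8, below all 0h libraries but overlapping 2h. In rev it was 31.0, 27.1, 41.7 and 35.8 CPM. Bax fell by 0.69 on the log2 scale at 4h vs 0h (SE 0.166, adjusted p 0.00244), and its value in rev vs 4h (log2 fold change 0.41, adjusted p 0.0526) did not pass the threshold. The log2 fold change at 4h vs 0h was -1.28 in clone 4, against a single 0h library. In clone 8 it was -0.29 and was not called.

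Bak1, the effector that resides on the mitochondrion, rose at 4h under TMM scaling but not under total count scaling. The gene (ENSMUSG00000057789) lies on the minus strand at chr17:27019810-27029009, and 25.5% of its exon length is shared with Ggnbp1 on the opposite strand. The strand handling of the counting is not given in the sources used here, so reads of the pair may not be told apart; the listed Ggnbp1 gene (ENSMUSG00000048731) lay between 1.06 and 3.05 CPM. The level of Bak1 was 19.1, 13.9 and 16.2 CPM at 0h, and 17.7, 19.5, 11.5 and 13.9 CPM at 2h. At 4h it was 19.5, 24.4, 19.6 and 24.1 CPM, above all libraries of 0h and 2h by a narrow margin, and in rev it was 19.1, 18.8, 17.5 and 17.1 CPM. Bak1 rose 1.43-fold from 2h to 4h (log2 0.52, SE 0.133, adjusted p 0.00404), which thinning ended (adjusted p 0.127). The rise over 0h (log2 fold change 0.39, adjusted p 0.0343) was lost when any of 9 libraries was left out, with an adjusted p of up to 0.169, and in 4 other fits, thinning among them (0.08, adjusted p 0.837). When libraries were scaled by their total count alone, the median tested gene moved by -0.73 at 4h vs 0h and by -0.57 at 4h vs 2h, and Bak1 then had log2 fold changes of -0.34 and -0.03, which are 0.39 and 0.54 above that median.

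**Figure D2:**
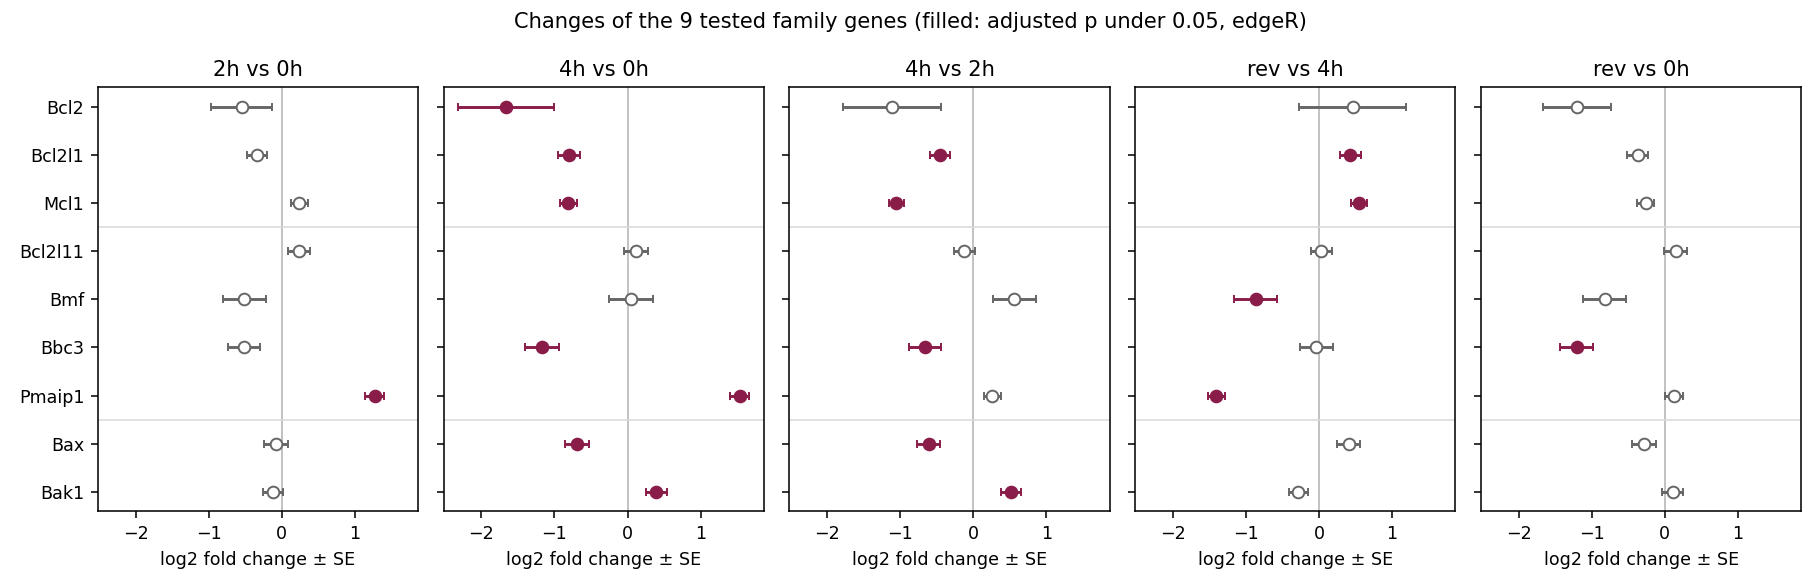
Log2 fold change of the 9 tested members (x axis, with SE bars) in each of the 5 comparisons between groups; filled points passed an adjusted p of 0.05 and open points did not, and grey lines part anti-apoptotic, BH3-only and effector genes. In 4h vs 0h the 3 anti-apoptotic genes, Bbc3 and Bax lie to the left of 0 and Pmaip1 and Bak1 to the right (Bak1 lies below 0 under total count scaling), while in rev vs 0h all but Bbc3 are open.

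The summed counts of the 7 pro-apoptotic members were set against those of the 3 anti-apoptotic members within each library. Pro-apoptotic genes took 37.5% ± 2.32 (SD, n = 3) of the counts of the 10 genes at 0h and 37.4% ± 1.71 (n = 4) at 2h. At 4h they took 54.6% ± 2.80, with 58.4% and 54.6% in clone 4 and 51.9% and 53.4% in clone 8. In rev they took 38.6% ± 1.37. Each 4h library lay above all 11 others, whose highest share was 40.2%, and the other 3 groups overlapped. On the log2 scale the ratio was -0.74 at 0h, -0.74 at 2h, 0.27 at 4h and, after reversion, -0.67. A long or abundant gene weighs more in this sum: Mcl1 supplied between 92.3% and 94.6% of the anti-apoptotic counts (pooled over the libraries of each group), so the share mostly sets the pro-apoptotic genes against Mcl1. Among the pro-apoptotic counts, Pmaip1 supplied 14.7% at 0h, 31.1% at 2h, 37.2% at 4h and, after reversion, 19.0%, while Bax supplied 31.3%, 25.8%, 17.6% and 28.7%. With each gene given the same weight, as the mean log2 CPM of pro- minus anti-apoptotic genes, the balance was -0.37 at 0h, -0.25 at 2h, 0.36 at 4h and, after reversion, -0.30. By that measure the second 4h library of clone 4, at -0.15, lay within the range of the other groups. The measure gives Bcl2, with 4 counts in all at 4h, and Bik, with 0, as much weight as any other gene of their class. Its 4h values therefore rest in part on levels at the limit of detection. No p is given for these sums, since the members were chosen by name with results known.

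**Figure D3:**
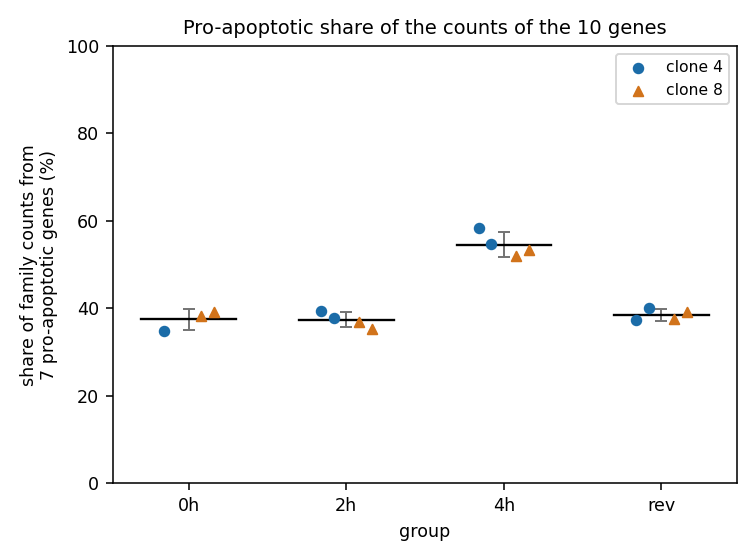
Share of the counts of the 10 genes that came from the 7 pro-apoptotic genes (y axis, percent) in each library, by group (x axis); circles are clone 4, triangles clone 8, horizontal bars the means and whiskers the SD. The 4h libraries lie between 51.9% and 58.4%, and those of the other groups between 34.8% and 40.2%.

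The clones were compared next. Each gene was first given a single clone difference for all groups, in the fit on group plus clone. By it, 4 of the 9 tested members were called, where 18.5% of all tested genes were called in either direction. The share of all tested genes in each direction is not given here. All 4 members were higher in clone 8 than in clone 4. These were Bmf (log2 difference 0.78, adjusted p 0.0139), Bbc3 (0.68, adjusted p 0.00542), Bax (0.46, adjusted p 0.00696) and Mcl1 (0.28, adjusted p 0.0141). After thinning to the smallest library those of Bmf, Bbc3 and Bax were lost (adjusted p 0.0583, 0.410 and 0.171), and under total count scaling those of Bax and Mcl1 (adjusted p 0.207 and 0.674). At 4h both clone 8 libraries lay above both clone 4 libraries in Bmf, Bbc3, Bax and Mcl1. These genes were called from the same libraries, so this is no separate support. The size of the difference varied with the group. At 0h the levels in clone 4 (a single library) and clone 8 (mean) were 7.50 and 8.70 CPM for Bmf and 19.1 and 25.6 CPM for Bbc3. They were 42.2 and 42.8 CPM for Bax and 224 and 206 CPM for Mcl1. At 4h the clone means were, in the same order, 2.95 and 14.6, 4.97 and 15.4, 17.1 and 34.9, and 95.2 and 144 CPM.

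Within clone 4, 6 of the 9 tested members were called at 4h vs 0h, against 27.1% of all tested genes. Within clone 8, 6 were called as well, against 26.5%. Mcl1, Bcl2l1, Bbc3 and Pmaip1 were called in the same direction in both. The log2 fold change of Mcl1 was -1.23 in clone 4 and -0.51 in clone 8, that of Bbc3 was -1.97 and -0.72, and that of Pmaip1 was 1.86 and 1.38. Bmf was called in both but in opposite directions, with -1.28 (adjusted p 0.00798) in clone 4 and 0.73 (adjusted p 0.0365) in clone 8. The values of clone 4 rest on a single 0h library, which is assumed to vary like the other groups. From 4h to rev, 3 members were called in clone 4 and 5 in clone 8, against 17.0% and 23.4% of all tested genes. Pmaip1 fell and Mcl1 rose in both clones, by log2 fold changes of -1.39 and 0.70 in clone 4 and of -1.43 and 0.41 in clone 8.

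Whether the clones differed in their changes was tested as an interaction. For 4h vs 2h, 2 members differed between the clones, against 3.14% of all tested genes. Bmf changed by 1.23 in clone 8 and -0.62 in clone 4 on the log2 scale, a difference of 1.85 (SE 0.392, adjusted p 0.0106). Bbc3 changed by -0.03 in clone 8 and -1.53 in clone 4, a difference of 1.51 (SE 0.299, adjusted p 0.00641). For rev vs 4h 1 member differed, against 2.80% of all tested genes: Bmf, with -1.42 in clone 8 and 0.19 in clone 4, a difference of -1.61 (SE 0.397, adjusted p 0.0324). That of Bcl2l11 in rev vs 4h, 0.86 (SE 0.231), had an adjusted p of 0.0506. For 2h vs 0h, 0 members differed by edgeR's test, against 0.230% of all tested genes, and Pmaip1 had an unadjusted p of 0.0281 there. The difference of Bmf in 4h vs 2h was lost without the second 4h library of clone 8 (adjusted p 0.0543) and that of Bbc3 without the second 4h library of clone 4 (adjusted p 0.0571) or the first of clone 8. Both were also lost under total count scaling (1.40 for Bmf, adjusted p 0.562, and 0.97 for Bbc3, adjusted p 0.680) and after every library was thinned to the smallest (0.67, adjusted p 0.833, and 0.90, adjusted p 0.645). The difference of Bmf in rev vs 4h was lost when any of 9 libraries was left out, with an adjusted p of up to 0.138, and in 5 of 7 other fits, thinning among them (-0.33, adjusted p 0.947). The 4h libraries of the clones differ in depth, from 1552022 to 6658950 counts in clone 4 and from 3492073 to 6209289 in clone 8.

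**Figure D4:**
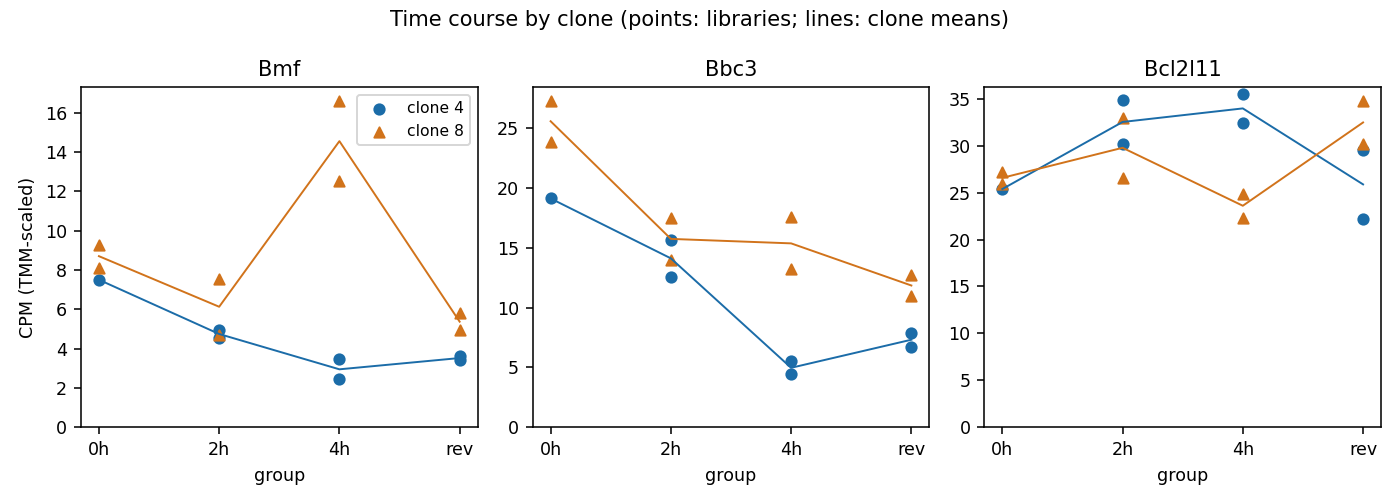
Level of Bmf, Bbc3 and Bcl2l11 in CPM on TMM-scaled libraries (y axis, linear from 0) by group (x axis) in clone 4 (circles) and clone 8 (triangles); points are libraries and lines join the clone means. At 4h Bmf lies between 2.44 and 3.46 CPM in clone 4 and between 12.5 and 16.6 CPM in clone 8.

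The rest of the family was taken from a list. Of 12 other family genes, 7 were tested. The anti-apoptotic Bcl2l2, at 3.05 ± 0.391 CPM at 0h, was not called in any comparison between groups (log2 fold change 0.56 at 4h vs 0h, adjusted p 0.0693), and Bcl2a1a, Bcl2a1b and Bcl2a1d had 0 counts in all libraries. Bid, which links death receptors to the mitochondrion, fell at 2h (log2 fold change -0.84, adjusted p 0.00298) and rose from 2h to 4h (0.51, adjusted p 0.0175), a rise that became -0.05 under total count scaling. Bok, a Bax-like effector, fell at 4h vs 0h (log2 fold change -1.31, adjusted p 0.00105), as did Bcl2l13, a mitochondrial outer membrane protein (-0.40, adjusted p 0.00282). Bcl2l13 rose in rev vs 4h (0.31, adjusted p 0.0139), and so did Bcl2l14 (1.65, adjusted p 0.0317), from 6 counts in all at 4h. Hrk, a BH3-only protein, was higher in rev than at 0h (log2 fold change 0.99, adjusted p 0.0437), a call that was lost under total count scaling. Bad, another BH3-only protein, was not called in any comparison between groups.

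Downstream of the family, of 16 tested genes of the apoptosome, caspases and their inhibitors, 1 rose and 4 fell at 4h vs 0h, where 20.5% of all tested genes rose and 18.9% fell, and the median log2 fold change of the list was 0.02. Under total count scaling, by which the median tested gene also fell, 0 rose and 8 fell. Htra2, a mitochondrial protease that is released with cytochrome c, fell by 1.08 on the log2 scale (adjusted p 0.000565), and Birc5, an inhibitor of apoptosis with a role in cell division, by 0.40 (adjusted p 0.0389). In rev vs 4h, where 15.1% of all tested genes rose and 15.6% fell, 2 rose and 0 fell, and Htra2 was among those that rose (log2 fold change 0.57, adjusted p 0.0461).

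Of 15 tested partners and regulators of the family, 6 rose and 2 fell at 4h vs 0h (median log2 fold change 0.21), against 20.5% and 18.9% of all tested genes. In rev vs 4h 0 rose and 5 fell (median -0.05), against 15.1% and 15.6%. Foxo1, a transcription factor that acts on Bcl2l11 in other cells, had a log2 fold change of 1.73 at 4h vs 0h (adjusted p 3.15e-09) and -0.79 in rev vs 4h (adjusted p 2.89e-05). Usp9x, the deubiquitinase that stabilises Mcl1 protein, had 1.02 (adjusted p 3.32e-06) and -0.80 (adjusted p 2.53e-05). Ube2c, a ubiquitin-conjugating enzyme of mitosis, had 0.82 (adjusted p 5.61e-06) and -0.71 (adjusted p 1.33e-05). Under total count scaling 1 of these genes rose and 7 fell at 4h vs 0h, where the median tested gene also fell. In rev vs 4h 0 were called, so the split of this list depends on the scaling.

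Of 14 tested genes of p53 and its targets, 1 rose and 7 fell at 4h vs 0h (median log2 fold change -0.22), against 20.5% and 18.9% of all tested genes. Under total count scaling, by which the median tested gene also fell, 0 rose and 10 fell. The gene that rose was Trp53 itself, which encodes p53 (log2 fold change 0.79, adjusted p 1.62e-06; 0.06, adjusted p 0.866, under total count scaling). Phlda3, an inhibitor of AKT, fell by 1.61 on the log2 scale (adjusted p 1.10e-05), the kinase Plk2 by 1.15 (adjusted p 1.16e-05) and the nuclease Aen by 0.94 (adjusted p 1.45e-06). In rev vs 4h 2 rose and 4 fell, against 15.1% and 15.6% of all tested genes, and under total count scaling 3 rose and 0 fell. The values there were -0.80 for Trp53 (adjusted p 5.95e-07), -0.57 for Sesn2 (adjusted p 0.000455) and 0.51 for Aen (adjusted p 0.000734). Of the members here, Bbc3, Pmaip1 and Bax are known p53 targets too, and in the comparison of 4h with 0h Bbc3 and Bax fell while Pmaip1 rose.

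**Figure D5:**
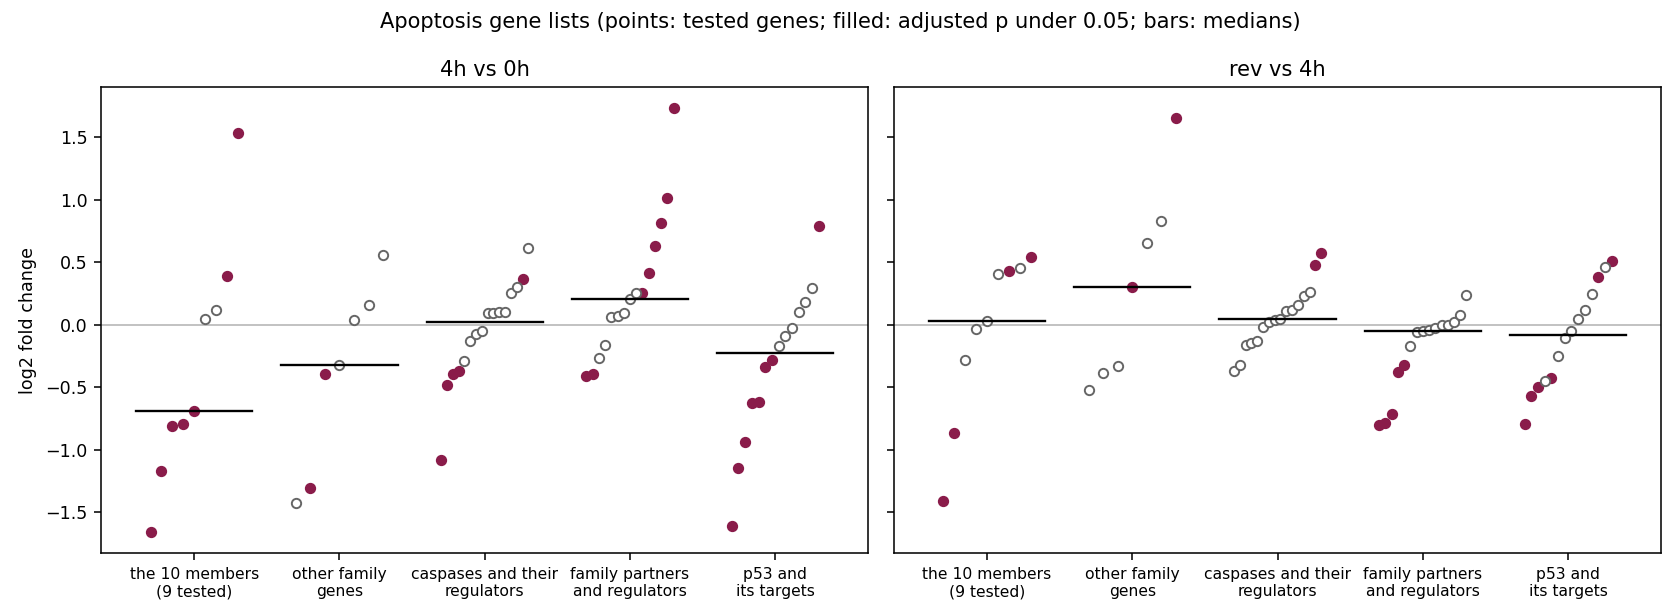
Log2 fold change (y axis) of each tested gene of the members and of the 4 further lists in 4h vs 0h and rev vs 4h; filled points passed an adjusted p of 0.05, open points did not, and horizontal bars are list medians. The median of the members is -0.69 in 4h vs 0h (-0.32 without Bcl2) and 0.03 in rev vs 4h, while Pmaip1 stands alone at the top of the members in 4h vs 0h and at their bottom in rev vs 4h.

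As a description of each member's pattern over the 15 libraries, the genes of at least 5 CPM whose log2 levels correlated best with it were listed. The libraries share depth, clone and group, so no p is given. Pmaip1 was most like Spry2, an ERK-induced inhibitor of the pathway (Pearson r = 0.91), and Gadd45a was another of its nearest 3 genes (r = 0.88). Mcl1 was most like the histone gene Hist1h2ai and the histone chaperone gene Nasp (r = 0.94 each), and Bcl2l1 was most like Cgn (r = 0.94). Bax was most like Vps51 (r = 0.96), followed by the replication gene Mcm7 (r = 0.96). Bak1 was most like the transcription factor gene Lef1 (r = 0.89), and Bcl2l11 had the lowest best value, 0.84 with Nkrf, together with Bcl2 (0.84 with Stxbp4). Among the members themselves the highest values were those of Mcl1 with Bax (r = 0.87) and Bbc3 with Bax (r = 0.84), and the lowest was that of Mcl1 with Bak1 (r = -0.68).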

How the data were processed

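RNA sequencing counts of 15 samples were used as the authors deposited them: whole-number counts per Ensembl gene, with no normalization seen in the values. The submitters' processing notes name STAR 2.5.3a, bcl2fastq 2.19.1 and mm10; the counting tool, annotation and strand handling are not given in the sources used here. Names and positions came from GENCODE M21, and 52403 of 52636 identifiers matched. The members and lists were chosen with earlier results of these data known.

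Counts were filtered by filterByExpr (minimum count 10, minimum total 15), scaled by TMM in edgeR 4.0.16 (R 4.3.3) and fitted on group plus clone with the robust quasi-likelihood test (two-sided, Benjamini-Hochberg over 13451 genes). Clone differences came from a model with a term per group and clone. Alternatives included DESeq2 1.42.0, other scalings, thinning, a replicate block and leaving out each library; edgeR's earlier quasi-likelihood method was added after seeing the data. Libraries of a group and clone differed by more than counting noise (chi-square per degree of freedom 6.21 to 260).

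Beside the members, the text names each tested other family gene and, of the other lists, the 3 called genes with the largest change in 4h vs 0h and in rev vs 4h; the values of 1 gene this rule names are not reported here. On simulated counts with 200 of 13451 genes changed by 2 on the log2 scale, the test found 195 in 2h vs 0h (7 false), 178 in 4h vs 0h (11 false) and 175 in rev vs 4h (13 false). The called members changed by less than that, and many more genes were called at 4h in the data. These numbers therefore do not show how often changes of the members' size are found. A level of 3 counts was between 0.161 and 1.83 CPM.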

Additional observations from a re-analysis of the deposited data

Results flagged for a closer look

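In the 3 groups of 4 libraries, 30 sets of a member and group were examined for a library far from the others, of which chance alone marks about 1 in 20. Bcl2 at 2h was 1.22 CPM in the first library of clone 8, from 14 counts, while the other 3 libraries lay between 0.482 and 0.567 CPM. Bmf at 2h was 7.55 CPM in the second library of clone 8, and the other 3 lay between 4.54 and 4.95 CPM.

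The change of Bmf from 2h to 4h differed between the clones by 1.85 on the log2 scale (higher in clone 8, edgeR adjusted p 0.0106), and that of Bbc3 by 1.51 (adjusted p 0.00641). The change of Bmf from 4h to rev differed by -1.61 (lower in clone 8, adjusted p 0.0324). At 4h both libraries of clone 8 lay above both of clone 4 for these genes, which is no separate support, since the tests used the same libraries. Library totals and mitochondrial shares at 4h were 1552022 and 6658950 counts and 12.4% and 7.93% in clone 4, against 6209289 and 3492073 counts and 7.21% and 10.1% in clone 8, and their part in the clone differences was not tested.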

How the results depend on the processing

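Under total count scaling Bak1 turned to -0.34 (4h vs 0h) and to -0.033 (4h vs 2h), with the median gene moved by -0.73 and -0.57. The number of members called changed by more than 1.5 times in these fits. In 2h vs 0h it was 2 in place of 1 with no count filter, without the 20 most abundant and mitochondrial genes, and with only the groups compared. In 4h vs 2h it was 3 in place of 5 after thinning and with no clone term, and in rev vs 4h 2 in place of 4 after thinning. In rev vs 0h it was, in place of 1, 2 under total count scaling and by the earlier method of edgeR, 3 by DESeq2, 4 with no count filter and without the most abundant genes, and 5 with only the groups compared. In clone 8 vs clone 4 it was 2 in place of 4 under total count scaling and 1 after thinning. For the clone difference of 4h vs 2h it was 0 in place of 2 under total count scaling and after thinning. For that of rev vs 4h it was, in place of 1, 2 with the size factors of DESeq2 and with no count filter, and 0 under total count scaling, without the most abundant genes, by DESeq2 and by the earlier method of edgeR. The causes were not tested. Leaving out each library in turn gave 5 to 7 members in 4h vs 0h, 4 to 5 in 4h vs 2h, 2 to 5 in rev vs 4h, 1 to 2 in rev vs 0h, and 1 to 2 and 0 to 2 for the clone differences of 4h vs 2h and rev vs 4h. The clone difference of 2h vs 0h could not be fitted without the clone 4 library of 0h. The log2 balance of pro- to anti-apoptotic counts was 1.01 higher at 4h than at 0h (0.92 to 1.06 with a library left out) and 0.73 with equal weight for each gene. From 4h to rev it was -0.94 (-0.99 to -0.86) and -0.66 with equal weight, at 2h vs 0h -0.005 (-0.086 to 0.049) and 0.12 with equal weight, and in rev vs 0h 0.068 (-0.014 to 0.121). Replicate numbers within a clone share only a number: deviations of same-numbered libraries correlated between -0.19 and 0.26 over 18 pairs of libraries. These hold 9 distinct values, since the 2 replicates of a clone deviate by equal amounts in opposite directions, and 1 of them was over 0.1. A replicate block gave 1, 6, 5, 4 and 1 members in the 5 comparisons between groups, in the order of the report, and Bcl2 4h vs 0h was the call it ended (adjusted p 0.0769). At the depth of the 4h libraries Bcl2 and Bik were near or under 3 counts, so their changes there were at the limit of detection. The equal-weight values of the balance include both genes.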
